A study of Mus musculus with 8 samples.

Results

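The transcription factors that build and maintain the lung epithelium were followed in lungs of mice given naphthalene. The group held 10 genes, taken by symbol from a table of 22244: Nkx2-1, Foxa1, Foxa2, Sox2, Sox9, Gata6, Cebpa, Etv5, Elf3 and Ehf. Naphthalene is an aromatic hydrocarbon that cytochrome P450 enzymes of airway club cells turn into toxic products, and it is used to injure the airway lining. RNA was sequenced from the right cranial lobe of 4 adult male C57BL/6J mice injected with naphthalene and of 4 adult male C57BL/6J mice labelled as having had no treatment. No transgene or mutation is named for either group. Neither the amount injected, nor its vehicle, nor when lungs were taken is stated in the labels, so effects of the injection and of naphthalene cannot be told apart. Whole lobe was sequenced, so for every gene fewer cells of a type and less RNA per cell cannot be told apart.

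In the mouse lung NKX2-1, FOXA1, FOXA2 and GATA6 act early and broadly, in the specification of the respiratory endoderm and in the later activation of secretoglobin and surfactant genes. SOX2 marks and maintains the conducting airway, whereas SOX9 and ETV5 belong to the distal tips of the branching lung, where fibroblast growth factor signalling keeps progenitors in their state, and ETV5 persists in alveolar type 2 cells. CEBPA is needed for the maturation of airway and alveolar type 2 cells, and ELF3 and EHF are epithelium-specific members of the ETS family.

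Total counts ranged from 11233709 to 16792306 in naphthalene libraries and from 10743842 to 13518183 in control libraries. Of the 10 factors 9 had enough counts to be tested, among 14192 genes tested in all. The surfactant gene Sftpc, which defines alveolar type 2 cells, averaged 6502 ± 1081 CPM in naphthalene lungs and 6452 ± 778 CPM in control lungs (CPM is a count scaled to library size; mean ± SD, n = 4 each), so the tissue label held in both groups. Naphthalene and control libraries lay at opposite ends of the first principal component of the 500 most variable genes, which held 81.8% of the variance.

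Elf3 was listed at 0 counts in all 8 libraries. It lies on chromosome 1, and 1138 of the 1150 protein-coding genes of that chromosome in the table were at 0 in every library, among them the leukocyte gene Ptprc and the endothelial gene Sox17. On the other autosomes and the X chromosome between 0.399% and 20.6% of coding genes were at 0. The 0 of Elf3 is therefore shared by its chromosome and gives no level for this gene, and the planned ratio of Elf3 to Ehf was not computed. Why the chromosome carries no counts was not tested.

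Of the 9 tested factors 3 fell after naphthalene, and 0 rose. The ETS factor gene Ehf and the pioneer factor gene Foxa1 fell to 0.62 and 0.69 of their control levels, and the airway factor gene Sox2 fell to 0.55 of its control level, while Nkx2-1, Foxa2, Gata6, Cebpa, Etv5 and Sox9 did not pass the test. By edgeR's quasi-likelihood test with Benjamini-Hochberg adjustment over all genes, 3 of 9 passed an adjusted p of 0.05, against 28.7% of all tested genes. In the lower direction 3 of 9 passed against 14.6% of all tested genes, and in the higher direction 0 of 9 against 14.1%. A share of 3 in 9 lies near the background of the whole table, so the count itself says little about these factors, and their individual values carry the description. The median log2 fold change of the 9 was -0.12, against 0.01 over all tested genes, and the median size of change regardless of sign was 0.17 against 0.26.

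**Figure D1:**
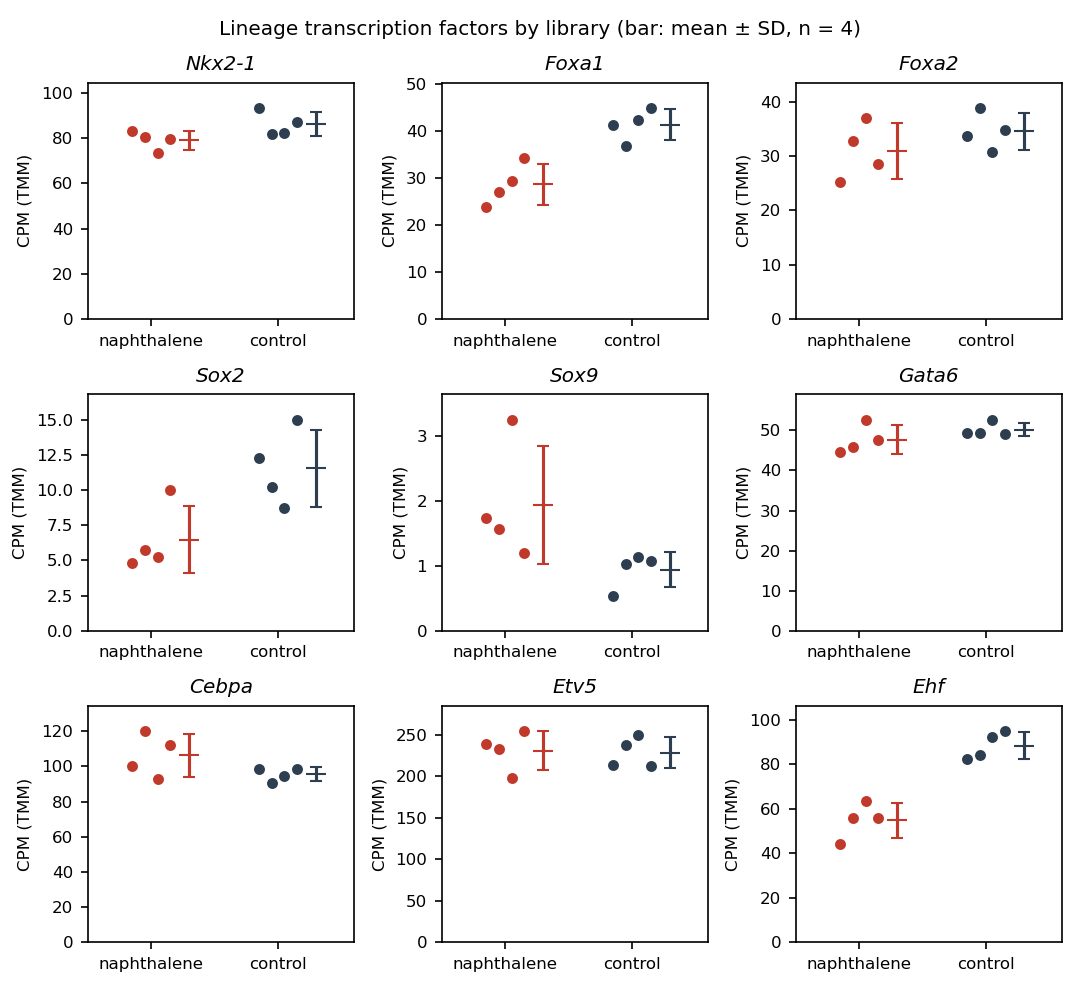
Level of each of the 9 tested factors in CPM (vertical axis, starting at 0) in naphthalene (red, left) and control (dark, right) libraries; points are single mice, bars the mean and SD of 4. The red and dark points separate for Foxa1, Ehf and, by a narrow gap, Sox9, and mingle for the other 6. Such a separation was seen in 28.6% of all tested genes.

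Among the broadly acting factors, Foxa1 fell and the others did not pass the test. Foxa1, whose protein opens compacted chromatin for other regulators, stood at 23.8, 27.1, 29.4 and 34.3 CPM in naphthalene lungs, against 41.3, 36.8, 42.4 and 44.9 CPM in control lungs. Every naphthalene value was below every control value. The means were 28.7 ± 4.43 CPM in naphthalene lungs and 41.4 ± 3.40 CPM in control lungs (SD, n = 4 each), a log2 fold change of -0.53 (SE 0.13, edgeR adjusted p = 0.00838). The call held in each of 18 alternative settings, with log2 fold changes of -0.63 to -0.44.

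Foxa2, the paralogue of Foxa1 with overlapping functions in the lung, was at 25.2, 32.8, 37.1 and 28.5 CPM in naphthalene lungs and at 33.7, 38.9, 30.8 and 34.9 CPM in control lungs. The groups overlapped, and the difference did not pass (log2 fold change -0.17, SE 0.14, edgeR adjusted p = 0.372, 95% interval -0.50 to 0.17). Nkx2-1, the homeobox gene that specifies lung identity, was at 83.3, 80.5, 73.3 and 79.5 CPM in naphthalene lungs and at 93.4, 81.7, 82.3 and 87.3 CPM in control lungs. Only the highest naphthalene value exceeded a control value, and the difference was small and did not pass (log2 fold change -0.12, SE 0.06, edgeR adjusted p = 0.305, 95% interval -0.27 to 0.02). Gata6, a zinc finger factor gene of endoderm that smooth muscle and mesothelium also use, was at 44.5, 45.8, 52.7 and 47.6 CPM in naphthalene lungs and at 49.4, 49.4, 52.6 and 49.1 CPM in control lungs. Its groups overlapped (log2 fold change -0.07, edgeR adjusted p = 0.562), and its 95% interval of -0.22 to 0.07 was the narrowest of the 9.

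Sox2 and Sox9, which divide the developing lung into airway and distal tip, had fold changes of opposite sign, of which that of Sox2 passed. Sox2 was at 4.82, 5.74, 5.27 and 9.98 CPM in naphthalene lungs, against 12.3, 10.2, 8.70 and 15 CPM in control lungs. Naphthalene 1, 2 and 3 lay below all controls, and naphthalene 4 lay above the lowest control. The means were 6.45 ± 2.38 CPM in naphthalene lungs and 11.5 ± 2.71 CPM in control lungs (SD, n = 4 each), a log2 fold change of -0.86 (SE 0.28, edgeR adjusted p = 0.0242). The call depended on single libraries. It was lost without control 1 (log2 fold change -0.83, edgeR adjusted p = 0.0605), control 4 (-0.70, adjusted p = 0.0806), naphthalene 2 (-0.80, adjusted p = 0.0686) or naphthalene 3 (-0.78, adjusted p = 0.0671). In these omissions the number of all genes past the threshold also dropped, to between 2929 and 3042, against 4075 with no library left out. It was 2945 without control 2, where Sox2 still passed (-0.91, edgeR adjusted p = 0.0414). Without naphthalene 4 the change of Sox2 was larger (-1.13, adjusted p = 0.00234).

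Sox9 was close to the detection limit, with 29, 24, 37 and 13 counts in naphthalene libraries and 6, 14, 13 and 15 counts in control libraries. As levels these were 1.73, 1.57, 3.25 and 1.19 CPM in naphthalene lungs and 0.538, 1.02, 1.14 and 1.07 CPM in control lungs. The groups did not overlap, by a gap of 1.19 CPM in naphthalene 4 against 1.14 CPM in control 3, a separation that 28.6% of all tested genes showed. The log2 fold change of 1.01 did not pass (SE 0.36, edgeR adjusted p = 0.0606), but passed without naphthalene 4 (1.16, adjusted p = 0.0348). Without naphthalene 3, the library with the highest level, the log2 fold change was 0.67 (adjusted p = 0.181). Cartilage also expresses Sox9. Its marker genes summed to 1.76 to 2.66 CPM in naphthalene lungs and 1.86 to 2.39 CPM in control lungs. These sums were low, as was the level of Sox9. Of the 5 cartilage markers outside chromosome 1, Col2a1 and Acan averaged 0.5002 and 0.235 CPM in naphthalene lungs, against 0.135 CPM and 0 in control lungs. The other 3 had the lower mean after naphthalene, with Hapln1, Cnmd and Matn1 at 0.945 CPM, 0.413 CPM and 0 in naphthalene lungs, against 1.342, 0.662 and 0.0358 CPM in control lungs. Hapln1 was the 1 marker with enough counts to be tested and did not pass (edgeR adjusted p = 0.261), and the part of cartilage in the Sox9 values was not tested.

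The factors tied to alveolar type 2 cells did not pass the test. Etv5, the most abundant of the 9, was at 238, 233, 198 and 254 CPM in naphthalene lungs and at 213, 237, 250 and 212 CPM in control lungs. The groups overlapped fully, the log2 fold change of 0.02 did not pass (SE 0.10, edgeR adjusted p = 0.925, 95% interval -0.22 to 0.25), and its sign turned under upper quartile scaling (-0.01) and without 3 single libraries. Cebpa, a leucine zipper factor gene that alveolar type 2, club and myeloid cells share, was at 100, 120, 93.0 and 112 CPM in naphthalene lungs and at 98.7, 90.8, 94.8 and 98.6 CPM in control lungs. Its spread was wider among naphthalene lungs (SD 11.9 CPM) than among control lungs (SD 3.76 CPM), and the difference did not pass (log2 fold change 0.15, SE 0.09, edgeR adjusted p = 0.261).

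Ehf, the epithelium-specific ETS factor gene of this group that was measured, showed the smallest p of the 9. It was at 44.2, 56.0, 63.4 and 55.9 CPM in naphthalene lungs, against 82.5, 84.0, 92.1 and 94.9 CPM in control lungs. All naphthalene values lay well below all control values. The means were 54.9 ± 7.94 CPM in naphthalene lungs and 88.4 ± 6.05 CPM in control lungs (SD, n = 4 each), a log2 fold change of -0.69 (SE 0.12, edgeR adjusted p = 0.001265), which ranked 843 among the 14192 tested genes by p. The call held in each of 18 alternative settings, with log2 fold changes of -0.76 to -0.58.

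**Figure D2:**
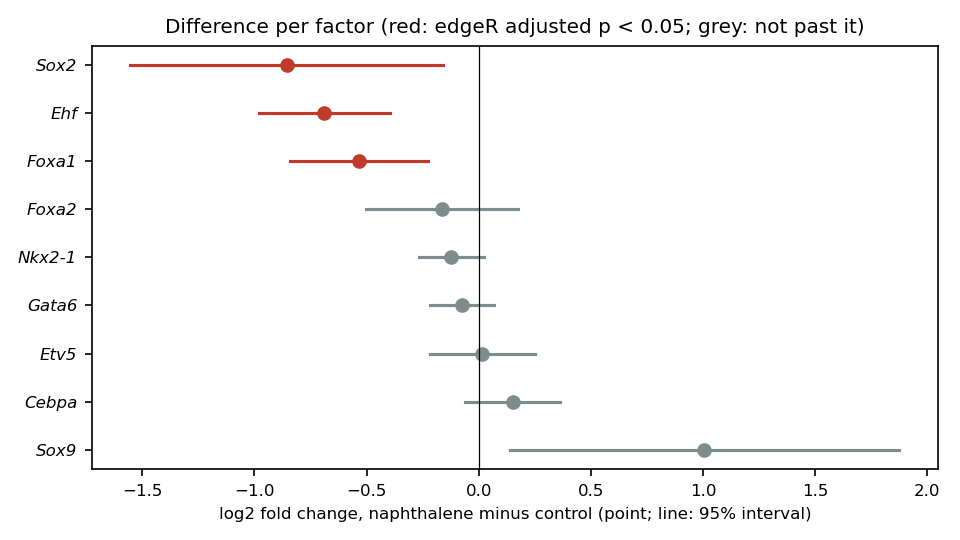
Log2 fold change, naphthalene minus control, of the 9 tested factors (horizontal axis); points are edgeR estimates and lines 95% intervals, unadjusted for the number of genes. Sox2, Ehf and Foxa1 (red) lie left of 0 at -0.86, -0.69 and -0.53, and Sox9 (grey) lies at 1.01 with an interval of 0.14 to 1.88 although its adjusted p of 0.0606 did not pass.

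**Figure D3:**
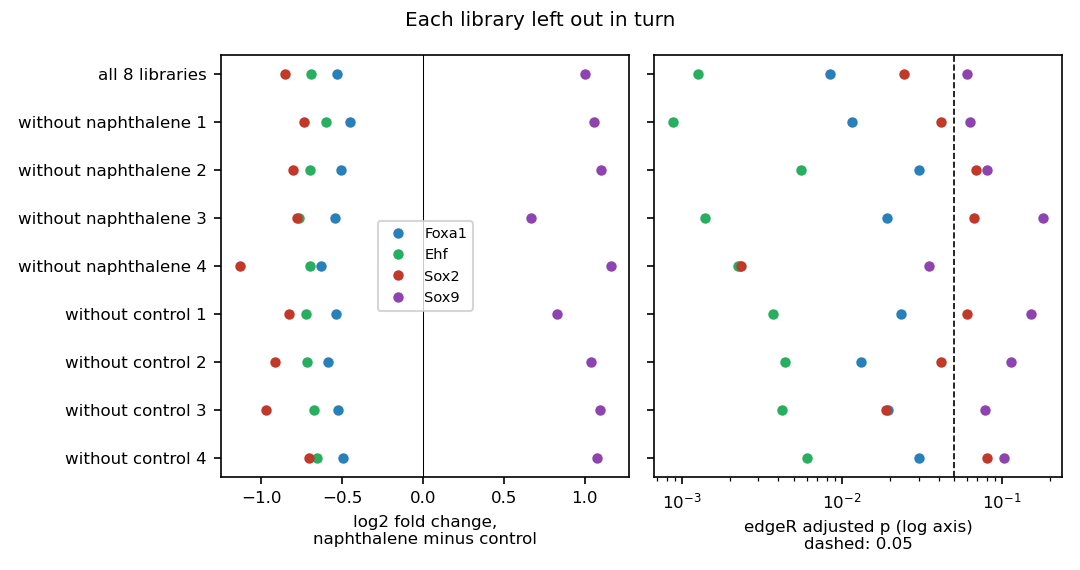
Log2 fold change (left) and adjusted p on a log axis (right) of Foxa1, Ehf, Sox2 and Sox9 with all 8 libraries and with each library left out. Foxa1 and Ehf stay left of the dashed line at 0.05 throughout, whereas Sox2 crosses it in 4 of the 8 omissions and Sox9 in 1.

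Regulatory sequence is shown for Foxa1 and Sox2, which fell, beside Nkx2-1, which did not pass. The sequences are the bases before the RefSeq start in build GRCm38.p6, whereas mm39 is the build named for the counts. RefSeq starts were at hand for 7 of the 10 factors, and not for Sox9, Gata6 and Ehf. Foxa1 is shown from chr12:57546122-57546361 on the minus strand (240 bases, without the 10 bases next to the start that fall in an annotated exon), Sox2 from chr3:34649745-34649994 on the plus strand and Nkx2-1 from chr12:56536909-56537158 on the minus strand (250 bases each). All read 5′ to 3′ along the gene, with motif matches in capitals.
Foxa1: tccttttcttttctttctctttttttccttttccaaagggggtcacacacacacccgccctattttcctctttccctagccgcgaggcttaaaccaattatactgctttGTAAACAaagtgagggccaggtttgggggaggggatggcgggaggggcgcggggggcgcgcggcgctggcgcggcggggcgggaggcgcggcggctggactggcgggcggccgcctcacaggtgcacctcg
Sox2: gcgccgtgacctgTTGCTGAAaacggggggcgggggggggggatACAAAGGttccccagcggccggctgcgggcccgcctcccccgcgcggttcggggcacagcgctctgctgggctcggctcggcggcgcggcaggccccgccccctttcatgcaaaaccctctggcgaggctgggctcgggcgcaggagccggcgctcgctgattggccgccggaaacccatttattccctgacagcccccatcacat
Nkx2-1: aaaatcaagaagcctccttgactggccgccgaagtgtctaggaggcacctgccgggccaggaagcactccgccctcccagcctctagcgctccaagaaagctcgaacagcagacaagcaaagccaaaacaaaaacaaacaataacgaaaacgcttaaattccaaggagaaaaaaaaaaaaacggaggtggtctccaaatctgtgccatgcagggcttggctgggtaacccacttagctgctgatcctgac
A set of 6 motifs was searched on both strands in the 250 bases before each start, namely TGTTTNC for FOXA, CAAGTG for NKX2-1, ACAANGG for SOX, CCGGAAG for ETS, TTGCNNAA for C/EBP and AGATAAG for GATA. The Foxa1 sequence held a FOXA match on the opposite strand beginning 141 bases before the start, a motif that 17.8% of the 32851 RefSeq starts held in the same length. The Sox2 sequence held a SOX match beginning 206 bases before the start (11.6% of all starts) and a C/EBP match beginning 237 bases before it (9.56% of all starts). The Nkx2-1 sequence held none of the 6, and no 2 matches overlapped in any of the 3. Its GC content was 50.8%, against 72.0% for Sox2 and 62.0% for Foxa1 and a median of 52.4% over all starts. These are matches of letters and were not tested for binding.

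Levels were compared between genes after division by the length of their exons (CPM per kilobase, exon lengths from GENCODE M21). In naphthalene lungs the order ran Etv5, Cebpa, Nkx2-1, Foxa2, Ehf, Foxa1, Gata6, Sox2 and Sox9, with means of 56.3 ± 5.76 CPM per kilobase for Etv5, 27.9 ± 1.49 for Nkx2-1, 9.83 ± 1.42 for Ehf and 0.469 ± 0.219 for Sox9 (SD, n = 4). In control lungs the order was the same except that Ehf, at 15.8 ± 1.09 CPM per kilobase, stood before Foxa2, at 14.6 ± 1.42. Neighbours whose libraries overlapped were Foxa2 and Ehf, Ehf and Foxa1, and Foxa1 and Gata6 in naphthalene lungs, and Ehf and Foxa2, and Foxa2 and Foxa1 in control lungs. Gata6 and Foxa1 were thus apart in control lungs, at 7.70 ± 0.254 and 12.4 ± 1.02 CPM per kilobase, but overlapped in naphthalene lungs, at 7.32 ± 0.553 and 8.60 ± 1.33. Sox2 lies inside the longer noncoding gene Sox2ot on the same strand, and Nkx2-1, Cebpa and Gata6 each overlap a gene on the opposite strand, so reads of these partners may be included in their counts.

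Ratios of 2 factors within each library, which do not depend on scaling between libraries, were computed for 3 pairs as the log2 of counts plus 1. The Sox2 to Sox9 ratio was 1.45, 1.83, 0.68 and 2.97 in naphthalene lungs, against 4.30, 3.24, 2.84 and 3.71 in control lungs. Naphthalene 4 alone reached the control range. The means of 1.74 ± 0.95 in naphthalene lungs and 3.52 ± 0.63 in control lungs differed by -1.79 (SE 0.57, exact 2-sided permutation p = 0.0571 over 70 splits, Benjamini-Hochberg adjusted p = 0.0571). Without naphthalene 4 they differed by -2.20 (exact permutation p = 0.0286, the smallest that the remaining libraries allow). As naphthalene 4 was the only library to overlap, leaving it out separates the groups, and that p adds no support. The Foxa1 to Foxa2 ratio was -0.08, -0.28, -0.33 and 0.27 in naphthalene lungs and 0.29, -0.08, 0.46 and 0.36 in control lungs, and naphthalene 4 lay above control 2. Its means differed by -0.36 (SE 0.18, exact 2-sided permutation p = 0.0571, adjusted p = 0.0571), so a fall of Foxa1 relative to Foxa2 was not established beyond the spread between mice. The Nkx2-1 to Cebpa ratio was -0.27, -0.57, -0.34 and -0.49 in naphthalene lungs, against -0.08, -0.15, -0.20 and -0.18 in control lungs. All naphthalene values were the lower ones, by a mean of -0.27 (SE 0.07, exact 2-sided permutation p = 0.0286, the smallest that 70 splits allow), although neither gene passed alone, and the adjusted p over the 3 ratios was 0.0571. Without any 1 control library the permutation p was 0.0571.

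**Figure D4:**
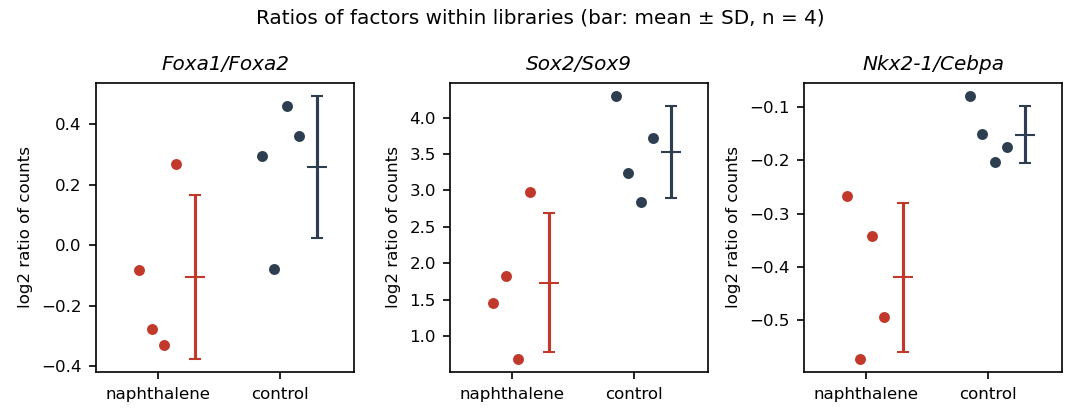
Log2 ratio of counts within each library for Foxa1 to Foxa2, Sox2 to Sox9 and Nkx2-1 to Cebpa (vertical axes, each on its own scale, not starting at 0), naphthalene (red, left) and control (dark, right); points are single mice, bars the mean and SD of 4. The groups are fully apart for Nkx2-1 to Cebpa, and naphthalene 4 is the library that reaches the control range for Sox2 to Sox9.

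Markers of the cells in which these factors act, and of other lung cells, were counted beside them. The lists were chosen with earlier results of these data known, so their counts are given as a description. Of all tested genes 14.1% rose and 14.6% fell. All 10 club cell markers fell, with a median log2 fold change of -1.89 and summed levels of 1280 to 3139 CPM in naphthalene lungs, against 5315 to 10714 CPM in control lungs. All 10 ciliated cell markers fell as well, with a median of -2.08 and summed levels of 107 to 189 CPM in naphthalene lungs, against 605 to 967 CPM in control lungs. Of 5 goblet cell markers 3 fell and 0 rose (median -1.44, summed levels 17.7 to 27.5 CPM in naphthalene lungs and 165 to 327 CPM in control lungs), among them the airway mucin gene Muc5b with a log2 fold change of -3.79 (edgeR adjusted p = 8.032e-06). Outside the epithelium, all 7 T and B cell markers fell (median -1.39, summed levels 23.7 to 40.7 CPM in naphthalene lungs and 76.4 to 106 CPM in control lungs). Other lists outside the epithelium were mixed. Of 6 tested neutrophil and monocyte markers 1 rose and 0 fell (median 0.92), and of 6 alveolar macrophage markers 1 rose and 1 fell. Of 7 endothelial markers 2 fell and 0 rose, and of 7 fibroblast markers 1 fell and 0 rose. These mixed counts changed when single libraries were left out. Of 3 tested neuroendocrine markers 2 rose and 0 fell (summed levels 21.8 to 30.8 CPM in naphthalene lungs and 6.54 to 7.84 CPM in control lungs). Of 9 alveolar type 2 markers 4 rose and 0 fell (median 0.35, summed levels 17499 to 21642 CPM in naphthalene lungs and 15390 to 18552 CPM in control lungs), and 2 of them passed without control 1, control 2 or naphthalene 2. Of 8 alveolar type 1 markers 3 rose and 0 fell (median 0.31, summed levels 7668 to 9060 CPM in naphthalene lungs and 6246 to 8329 CPM in control lungs). Of these 8, 5 passed without control 3 and naphthalene 1, and 2 without control 2 or control 4. Of 9 markers of epithelium in general the keratin genes Krt8, Krt18 and Krt19 rose and the protease gene Prss8 fell, while Cdh1, the epithelial cadherin gene, averaged 393 ± 45.3 CPM in naphthalene lungs and 388 ± 19.9 CPM in control lungs (edgeR adjusted p = 0.905). The falls of Foxa1, Sox2 and Ehf, of 0.53 to 0.86 on the log2 scale, were each smaller than the median fall of the club, ciliated, goblet, and T and B cell markers, and the part of any of these cell types in them was not tested. Basal markers were near the limit of detection in both groups, with summed levels of 3.39 to 12.5 CPM in naphthalene lungs and 2.90 to 11.1 CPM in control lungs, and Sox10, the defining gene of Schwann and other glial cells that also express Sox2, averaged 0.365 CPM in naphthalene lungs and 0.296 CPM in control lungs. Summed glial markers were at 62.8 to 90.1 CPM in naphthalene lungs and 70.4 to 79.4 CPM in control lungs. Smooth muscle and mesothelium also express Gata6. Of 6 smooth muscle markers 1 fell and 0 rose (4 passed without naphthalene 1, 3 without control 3 and 2 without control 4), and of 6 mesothelial markers 1 fell and 1 rose. The mesothelial marker that fell was Lrrn4. The marker that rose was Krt19, the keratin gene also counted above among markers of epithelium in general.

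Among 26 tested transcription factors of the lung epithelium outside the group, 6 fell and 5 rose, with a median log2 fold change of -0.15. Trp73, the p53 relative needed for multiciliated cells, fell by 1.68 on the log2 scale (edgeR adjusted p = 0.00085), Elf5, an ETS factor gene of distal epithelium, by 0.89 (adjusted p = 0.000888) and Sox4 by 0.94 (adjusted p = 0.00183). Foxj1, also a factor gene of multiciliated cells, did not pass (log2 fold change -0.68, SE 0.48, edgeR adjusted p = 0.188). It averaged 32.68 ± 20.95 CPM in naphthalene lungs and 52.78 ± 15.85 CPM in control lungs, and the groups overlapped. Ovol1, a zinc finger gene of epithelial differentiation, rose by 1.09 (adjusted p = 0.00156). When control 4 was omitted, 6 passed in place of 11, and without control 3 and naphthalene 1 the number was 16. Of 20 tested partners of the factors 3 rose and 2 fell (median -0.08), that is 5 of 20, against 28.7% of all tested genes. The number past was 9 without naphthalene 1, alone or with control 3. It was 4 without control 1, control 2, control 4, naphthalene 2 or naphthalene 3. Cebpd, a relative of Cebpa induced in acute inflammation, rose to 127 ± 13.8 CPM in naphthalene lungs, against 43.0 ± 16.4 CPM in control lungs (log2 fold change 1.57, SE 0.27, edgeR adjusted p = 0.000481). Stat3 rose by 0.51, while Nfia and Foxp2 fell by 0.48 and 0.59 on the log2 scale (edgeR adjusted p = 0.00444, 0.00617 and 0.0162), and Foxp2 did not pass without naphthalene 2 (adjusted p = 0.0535) or without control 3 and naphthalene 1 (adjusted p = 0.055). Wwtr1, whose protein TAZ binds NKX2-1, was at a log2 fold change of -0.03 (adjusted p = 0.901).

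Of 15 tested genes that NKX2-1, FOXA factors and CEBPA regulate in the lung, 5 rose and 3 fell (median 0.24). The number past was 5 without control 2 and 10 without control 3 and naphthalene 1. All 15 were also counted above among the alveolar type 2, alveolar type 1 or club markers, so their values are not separate from those counts. Of all tested genes 14.1% rose and 14.6% fell. The club cell genes Cyp2f2, Scgb3a2 and Scgb1a1 had log2 fold changes of -2.62, -2.30 and -1.85 (edgeR adjusted p = 7.719e-05, 0.00185 and 0.00207). Napsa, an alveolar type 2 protease that processes surfactant protein, rose to 218 ± 23.2 CPM in naphthalene lungs, against 144 ± 8.38 CPM in control lungs (log2 fold change 0.60, edgeR adjusted p = 0.00112). Of 15 tested genes of the FGF and ERK pathway around ETV5 4 rose and 4 fell (median 0.08). The ligand genes Shh and Bmp4, which tip epithelium makes in the developing lung, fell by 0.90 and 0.53 on the log2 scale (edgeR adjusted p = 0.00115 and 0.0194), and Bmp4 did not pass without control 2 or naphthalene 3. The closest relatives of Etv5 went opposite ways, Etv1 falling by 0.74 (adjusted p = 0.0112) and Etv4 rising by 1.30 (adjusted p = 0.0195) on the log2 scale. Etv4 was low, at 1.602 ± 0.310 CPM in naphthalene lungs and 0.665 ± 0.332 CPM in control lungs, and its call was lost when control 2, control 4 or naphthalene 3 was omitted (adjusted p between 0.0574 and 0.0675). Of the rest, Dusp6, Dusp4 and Fgf7 rose by 0.41, 0.49 and 0.39 on the log2 scale (edgeR adjusted p = 0.0273, 0.0274 and 0.0481). Spred2 fell by 0.33 (adjusted p = 0.0246). The number of pathway genes past the threshold was 4 without control 1, control 4, naphthalene 2 or naphthalene 3, and 2 without control 2, where 0 rose. It was 10 without naphthalene 1.

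**Figure D5:**
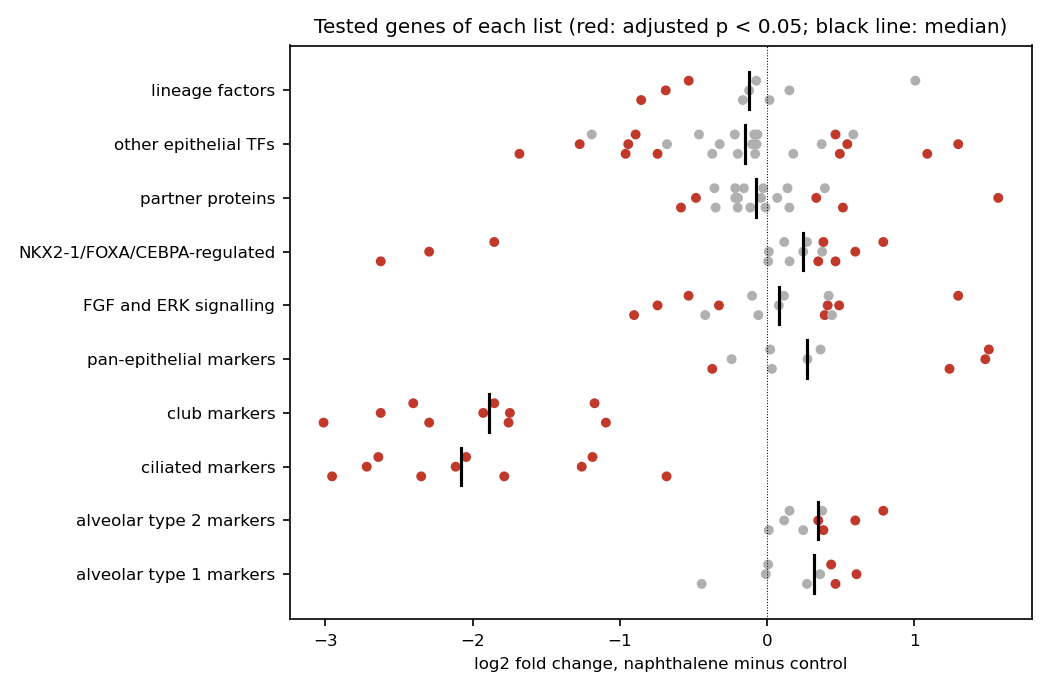
Log2 fold change, naphthalene minus control (horizontal axis), of every tested gene in the factor group and in 9 lists; each point is a gene (red where adjusted p is under 0.05), and black lines are medians. Club and ciliated markers lie far to the left, with medians of -1.89 and -2.08, and the factors lie between -0.86 and 1.01 around a median of -0.12. Every gene of the NKX2-1, FOXA and CEBPA list also appears among the club, alveolar type 2 or alveolar type 1 markers.

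For Nkx2-1 and Sox2 the genes with the most similar deviations from their group means were sought among 11538 genes over the 8 libraries. For Nkx2-1 they were Hnrnpul2, Pank4 and Zmym3 (Pearson r of 0.98, 0.97 and 0.96), and for Sox2 they were Umps, Strbp and Adap1 (0.98, 0.96 and 0.96), given as a description of 8 libraries that share depth and scaling.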

How the data were processed

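The authors deposited raw read counts per gene symbol, 1 column for each of 8 mouse lung libraries, from stranded total RNA libraries per the labels' protocols. The build mm39 and the tools featureCounts 2.0.6, HISAT2 2.2.1, Trim Galore 0.6.7 and edgeR 4.2.1 appear, without role, per the submitters' processing notes; no source used here gives annotation or strand setting. Columns were matched by library name (0 unmatched). The test was run with edgeR 4.0.16 under R 4.3.3 (TMM scaling, filterByExpr with a minimum count of 10 and total of 15, quasi-likelihood test, group as the only term), with p-values adjusted over all genes by Benjamini-Hochberg and a threshold of 0.05. CPM use TMM-scaled totals of the tested genes. Standard errors belong to the mean log2 CPM difference (prior count 2) between groups, and 95% intervals use 6 degrees of freedom. Ratios were tested by exact permutation. Alternatives used limma 3.58.1 and DESeq2 1.42.0.

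The members and lists were chosen with earlier results of these data known. Named genes were the 10 members, up to 4 genes past the test in each list with the smallest p (Cdh1, Wwtr1, Foxj1, Dusp4, Dusp6, Fgf7, Spred2, Ptprc, Sox17, Muc5b and the other single markers were added after their values were seen), and the genes nearest in pattern to Nkx2-1, Sox2 and, had it been measured, Elf3. Chi-square over its degrees of freedom was 5.75 to 51.2 between libraries of a group, so each library was counted once. On counts simulated for the naphthalene and control comparison (14089 genes), the procedure recovered 88% of 50 genes changed by a log2 value of 1, 88% at -1, 98% at 2 and 100% at -2, with 13 false calls. The changed genes were drawn only from those above a minimum mean count. No change smaller than 1 was simulated, so recovery of smaller changes, such as those of Foxa1, Ehf and Sox2, was not measured.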

Additional observations from a re-analysis of the deposited data

Results flagged for a closer look

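Gata6 in control lungs had 1 library apart from the other 3. Control 3 stood at 52.6 CPM, against 49.1 to 49.4 CPM in the others, and its gap to the nearest was 0.918 of the group's range. Chance flags about 1 in 20 such groups of 4, and 24 groups were examined.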

How the results depend on the processing

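Of the 9 tested factors, Nkx2-1, Foxa1, Foxa2, Gata6, Cebpa and Ehf kept their direction and their side of the threshold in all 18 alternatives (other scalings and filters, a replicate block, robust estimation, limma voom, DESeq2, each library left out, and control 3 with naphthalene 1 left out, which was chosen after seeing the data). The number of factors past the threshold was 2 to 4 with 1 library left out and 3 in each other alternative, and that of all genes was 2929 to 5058 with 1 library left out against 4075 with all. Sox2 lost its call in 4 omissions and Sox9 gained one in 1, as given above. The log2 fold change of Etv5 turned to -0.012 under upper quartile scaling, -0.018 without control 1, -0.018 without control 4 and -0.032 without naphthalene 4 (range with 1 library left out -0.032 to 0.082). The Sox2 to Sox9 difference ranged from -2.20 to -1.44 and the Nkx2-1 to Cebpa difference from -0.32 to -0.22 with 1 library left out. The cause of these changes was not tested.

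Mice with the same number did not all deviate together (correlations of 0.286, 0.0331, 0.185 and -0.0931), and naphthalene 4 correlated best with control 3 (0.354), so the numbers were not taken as pairs. With the replicate block 4363 genes and 3 factors passed, Sox2 at -0.87 (edgeR adjusted p = 0.00474). Within replicate numbers the Nkx2-1 to Cebpa difference of -0.27 had an exact sign-flip p of 0.125, the smallest that 4 pairs allow. Sox9 rested on 6 to 37 counts a library, with a coefficient of variation of 46.9% among naphthalene lungs and 29.1% among control lungs, and whether depth or the spread between mice kept it from passing was not tested.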

Other observations

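Of 12 tested genes that lie beside the factors on their chromosomes, 5 fell and 1 rose, with a median log2 fold change of -0.18. Of all tested genes 14.6% fell and 14.1% rose. The number past was 3 without control 4 or without naphthalene 3, and 9 without naphthalene 1. Elf5, near Ehf, fell to 13.3 ± 1.94 CPM in naphthalene lungs, against 24.5 ± 3.15 CPM in control lungs (log2 fold change -0.89, edgeR adjusted p = 0.000888). Dgkg, near Etv5, fell by 0.67 on the log2 scale (edgeR adjusted p = 0.0134), although Etv5 itself was at 0.02. Near Cebpa, Slc7a10 fell by 0.75 (adjusted p = 0.0158; 0.0547 without control 2) and Cebpg rose by 0.33 (adjusted p = 0.0219; 0.0563 to 0.0768 without control 1, control 2, control 4 or naphthalene 3) on the log2 scale.

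On chromosome 1 the 12 coding genes that did carry counts had totals over the 8 libraries of 1 to 51.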
